A study of Solanum lycopersicum with 17 samples.

Results

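The genes described here are the probe sets that read lower in all 4 seedless transgenic tomato lines than in wild-type fruit, whether or not the wild-type fruit still held its seeds. A probe set was a member when each of the 4 line means lay at least 0.7 log2 units below the mean of both controls and the mean of the control without seeds was above 5.5. Of 10038 probe sets tested, 112 met these values, 6 of them belonging to genes left out by name were set aside, and 106 remained. The platform annotation paired 14 of the 106 (13.2%) with a gene, giving 12 genes, against 9.06% of all probe sets tested, while the other 92 are unnamed here. Because the group means chose the members, their levels in lines against controls are given as a description, with no test.

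RNA abundance was measured in tomato (Solanum lycopersicum) fruit with 17 Affymetrix arrays, each hybridised with RNA from a pool of 8 fruits and standing for 1 plant. There were 2 control groups, both wild type, of 3 arrays each: fruit with its seeds (control with seeds), and fruit whose seeds had been taken out by hand (control no seeds). The 4 lines were INO-IaaM, DefH9-IaaM and INO-RolB with 3 arrays each, and DefH9-RolB with 2. All values are on the deposited log2 scale of RMA, a method that corrects background, equalises the arrays and summarises the probes of each probe set, so that a difference of 1 is a 2-fold difference in signal. Whether whole fruit held fewer cells of a type or less RNA per cell cannot be told apart in such pools.

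INO and DefH9 are promoters known for activity in ovules, the structures that become seeds, so the transgenes are driven from a small part of the young fruit while the RNA came from whole fruit pools. IaaM encodes a bacterial enzyme of auxin synthesis, and RolB is an Agrobacterium rhizogenes gene known for altering the response to auxin. Fruit that grows without fertilisation is called parthenocarpic. Jasmonates, to whose synthesis 2 of the named members belong, are hormones made from membrane fatty acids by lipoxygenase, allene oxide synthase and further enzymes, and are known for their part in wound and insect responses. Mitogen-activated protein kinases and phospholipase D act early in the signalling of the same stresses.

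On average the 106 members were high in both controls and lower on every line array. Their mean signal per array was 9.67, 9.65 and 9.57 in the control no seeds, and 9.55, 9.95 and 9.31 in the control with seeds. It was 7.70, 7.96 and 7.87 in INO-IaaM, 7.98, 8.81 and 7.47 in DefH9-IaaM, 8.07, 7.51 and 8.23 in INO-RolB, and 8.35 and 8.04 in DefH9-RolB. The highest line array, replicate 2 of DefH9-IaaM, stayed below the lowest control array, and it stood apart from the other arrays of its line.

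**Figure D1:**
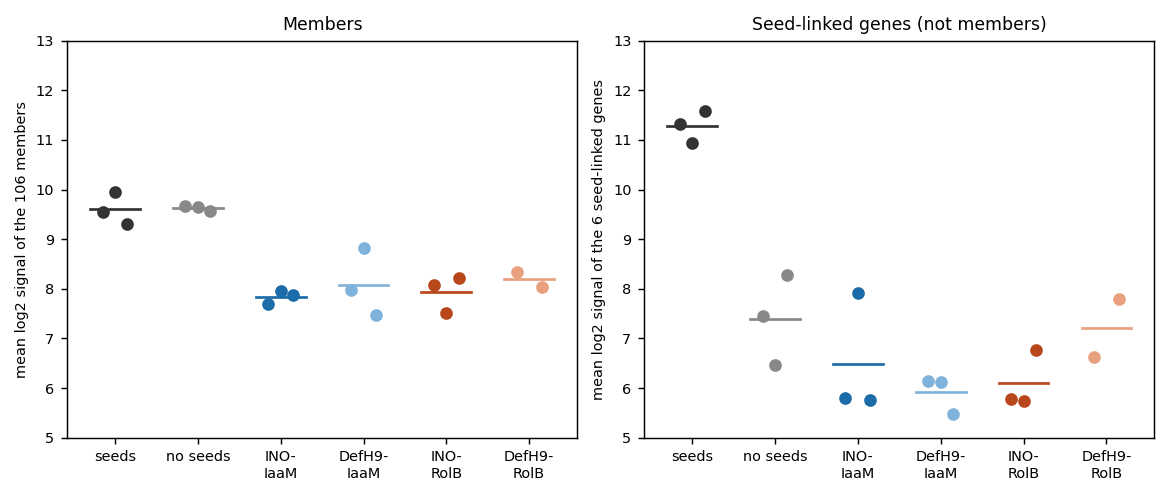
Mean log2 signal per array (points) and group mean (bars) for the 106 members on the left and for 6 genes linked to seeds, none of them members, on the right, with the 6 groups on the horizontal axis. Member means were 9.31 to 9.95 on the control arrays and 7.47 to 8.81 on the line arrays, while the seed-linked genes were high only with seeds, at 10.94 to 11.58.

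The smallest difference between a control mean and a line mean, called the gap below, ran from 0.71 to 2.64 with a median of 0.98. It was above 1 for 50 members, above 1.5 for 16 and above 2 for 3. Just inside the limit lay gaps of 0.705 and 0.706, and just outside it 0.699 for an unnamed probe set and 0.697 for DEM2. The lowest member mean in the control no seeds was 5.58, and the highest mean that fell short of the floor was 5.48. In 58 of the 106 members (54.7%) every line array read below every control array, as in 2.44% of all probe sets tested, and the rule used these same arrays.

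The levels of members in the controls were bounded from below by the rule. Their means in the control no seeds ran from 5.58 to 12.71 with a median of 9.71, against a median of 8.41 over all probe sets tested, which had no such floor. For scale, the 61 reporter probe sets that were silent on all arrays read 2.45 to 5.49. For 10 members all 4 line means fell in that range and for 8 more at least 1 did, so the differences that reach it are lower limits, while the other 88 members stayed above it in every line.

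**Figure D2:**
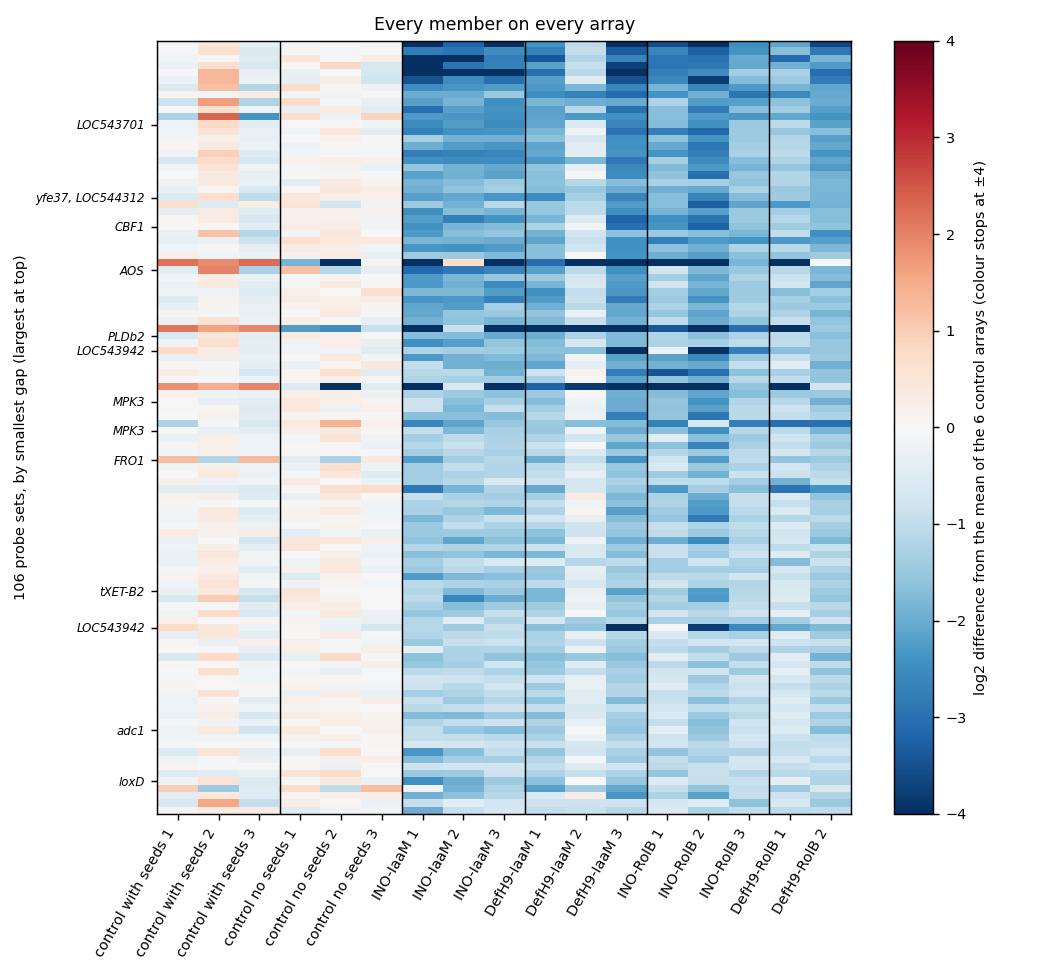
Every member (rows, ordered by gap) on each of the 17 arrays (columns, by group and replicate), coloured by its log2 difference from the mean of the 6 control arrays. Line arrays are blue throughout nearly all rows, the column of DefH9-IaaM replicate 2 is the palest among them, and 3 rows are red on all 3 arrays of the control with seeds.

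By line, INO-IaaM had the lowest mean for 54 members, INO-RolB for 33, DefH9-IaaM for 11 and DefH9-RolB for 8. The median difference from the control no seeds was -1.70 in INO-IaaM, -1.43 in DefH9-IaaM, -1.66 in INO-RolB and -1.32 in DefH9-RolB. Against the control with seeds the same medians were -1.49, -1.24, -1.45 and -1.25. These differences share their control arrays.

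Jasmonate synthesis was represented by loxD and AOS. The lipoxygenase gene loxD, which encodes the first step, read 11.41, 12.15 and 10.99 with seeds and 11.58, 11.94 and 11.31 without. It read 9.11, 9.59 and 10.16 in INO-IaaM and 9.92, 11.56 and 10.04 in DefH9-IaaM. The RolB lines lay between, at 11.06, 10.66 and 10.67 in INO-RolB and 11.19 and 10.35 in DefH9-RolB. Line arrays overlapped the controls through DefH9-IaaM replicate 2, INO-RolB replicate 1 and DefH9-RolB replicate 1, and line means were 1.76 to 3.97-fold below the control no seeds. The gap of loxD, 0.72, was 0.33 without DefH9-RolB replicate 2.

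AOS, the allene oxide synthase of the next step, was a low signal even in the controls. Its values were 6.40, 8.82 and 5.54 with seeds and 7.99, 5.70 and 6.5 without. In the lines it read 3.73, 3.95 and 4.19 in INO-IaaM, 4.64, 5.78 and 4.37 in DefH9-IaaM, 6.02, 5.04 and 5.32 in INO-RolB, and 5.72 and 4.98 in DefH9-RolB. All 3 INO-IaaM arrays and most other line arrays were within the range of silent reporters, so that the means, 2.41 to 6.82-fold below the control no seeds, are lower limits. Controls varied widely, and the gap of 1.27 was 0.51 without replicate 2 of the control with seeds.

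PLDb2 encodes a phospholipase D, which releases phosphatidic acid from membrane lipids. Signals were 8.79, 9.89 and 8.95 with seeds and 9.73, 9.60 and 9.41 without. The IaaM lines read 7.68, 7.66 and 7.37 (INO-IaaM) and 7.43, 8.17 and 7.62 (DefH9-IaaM), and the RolB lines 8.20, 7.72 and 8.17 (INO-RolB) and 8.34 and 7.72 (DefH9-RolB). No line array reached a control array, and line means were 2.92 to 4.03-fold below the control no seeds and 2.26 to 3.12-fold below the control with seeds.

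MPK3, a mitogen-activated protein kinase known from wound and pathogen signalling, was a member through 2 probe sets. The first read 9.89, 9.57 and 9.42 with seeds and 10.27, 10.16 and 10.03 without. It read 9.05, 8.22 and 8.57 in INO-IaaM, 8.16, 9.73 and 7.90 in DefH9-IaaM, 8.33, 7.50 and 8.70 in INO-RolB, and 8.79 and 7.98 in DefH9-RolB. Only DefH9-IaaM replicate 2 overlapped a control array. The second probe set had group means of 10.09 and 10.57 in the controls with and without seeds and 8.59 to 9.12 in the lines, and its gap of 0.98 was 0.59 without DefH9-IaaM replicate 3. A further probe set of the gene, near the silent range at 4.86 to 6.46 over the arrays, was not a member.

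CBF1 encodes a transcription factor of the AP2 family known from the response to cold. Its signal was 11.52, 11.58 and 11.09 with seeds and 11.81, 11.82 and 11.40 without. The lines read 9.10, 9.66 and 9.79 (INO-IaaM), 10.28, 11.40 and 8.52 (DefH9-IaaM), 9.15, 8.31 and 9.93 (INO-RolB) and 10.11 and 9.93 (DefH9-RolB). Replicates of DefH9-IaaM spread over nearly 3 log2 units, the highest of them within the control range, and the gap of 1.33 was 0.55 without its replicate 3. Line means were 3.05 to 5.83-fold below the control no seeds.

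The cell wall gene tXET-B2 encodes a xyloglucan endotransglycosylase, which cuts and rejoins the xyloglucan chains that tether cellulose. It read 11.21, 11.87 and 10.86 with seeds and 12.00, 11.46 and 11.51 without. Line values were 10.31, 9.71 and 10.00 in INO-IaaM, 9.65, 11.20 and 9.36 in DefH9-IaaM, 10.08, 9.24 and 10.37 in INO-RolB, and 10.87 and 10.08 in DefH9-RolB. DefH9-IaaM replicate 2 and DefH9-RolB replicate 1 overlapped the lowest control array, and the gap of 0.84 was 0.44 without DefH9-RolB replicate 2.

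FRO1, a ferric-chelate reductase of iron uptake, read 10.71, 8.30 and 10.74 with seeds and 9.04, 8.20 and 9.85 without. Lines read 7.27, 8.10 and 8.35 (INO-IaaM), 7.53, 8.48 and 7.11 (DefH9-IaaM), 8.68, 7.23 and 8.41 (INO-RolB) and 7.89 and 7.98 (DefH9-RolB). Replicate 2 was the lowest array of both controls, and line arrays overlapped it. The gap of 0.92 was 0.48 without INO-RolB replicate 2.

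Among the members known by a locus number or a symbol to which no role is given here, LOC543701 had the largest gap, 1.57. It read 10.49, 11.53 and 10.25 with seeds and 10.74, 10.81 and 10.56 without. It read 8.17, 8.48 and 8.19 in INO-IaaM, 8.65, 10.15 and 8.07 in DefH9-IaaM, 8.98, 8.30 and 9.25 in INO-RolB, and 9.67 and 8.60 in DefH9-RolB. No line array reached a control array, though DefH9-IaaM replicate 2 came within 0.1, and line means were 2.98 to 5.37-fold below the control no seeds. Without DefH9-RolB replicate 2 the gap was 1.04.

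The gene yfe37 read 6.97, 8.18 and 6.48 with seeds and 7.92, 7.73 and 7.72 without. It was at 5.34, 5.44 and 5.16 in INO-IaaM, 4.98, 6.18 and 4.87 in DefH9-IaaM, 5.80, 4.82 and 5.75 in INO-RolB, and 6.08 and 5.63 in DefH9-RolB. Groups did not overlap, and as the means of 3 lines lay in the silent range its differences are lower limits. The gap of 1.35 was 0.87 without replicate 2 of the control with seeds.

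LOC544312 read 10.50, 9.36 and 10.15 with seeds and 10.38, 9.13 and 9.72 without. In the lines it read 8.43, 7.98 and 8.77 (INO-IaaM), 8.35, 8.82 and 7.66 (DefH9-IaaM), 8.18, 6.61 and 7.75 (INO-RolB) and 7.58 and 7.98 (DefH9-RolB). Groups did not overlap, and both RolB means were below both IaaM means, with an IaaM minus RolB difference of 0.69 ± 0.33 (standard error, SE) that did not pass limma's test (adjusted p = 0.277).

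LOC543942 was a member through 2 probe sets that share their target sequence, with gaps of 1.09 and 0.83. The first read 7.53 to 8.81 on control arrays and 3.93 to 7.78 on line arrays, the top line value being INO-RolB replicate 1. For adc1 the member probe set read 10.44 to 11.65 on control arrays and 9.51 to 11.27 on line arrays. Its gap of 0.75 was 0.35 without DefH9-RolB replicate 2, and 3 further probe sets of the gene missed the limit with gaps of 0.64, 0.52 and 0.18.

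**Figure D3:**
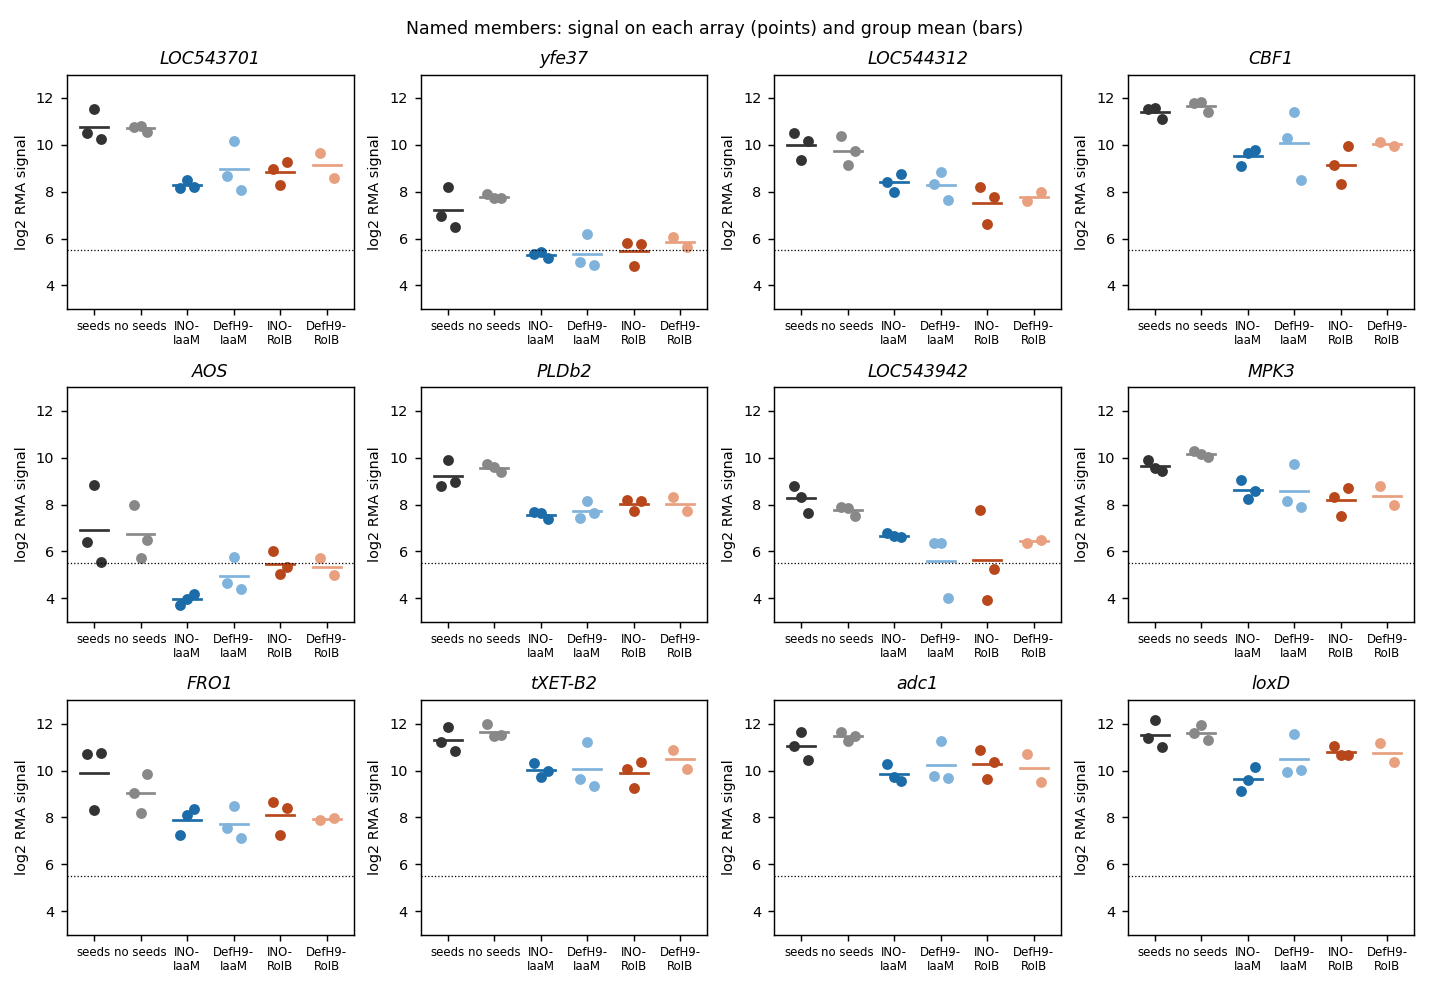
Log2 signal on each array (points) and group mean (bars) for the 12 named members in the 6 groups, with a dotted line at 5.49, the highest reading of a silent reporter. LOC543701, yfe37, LOC544312 and PLDb2 show no overlap between control and line arrays, and the highest DefH9-IaaM point of most genes is replicate 2.

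Probe sets with no gene name held the largest gaps. LesAffx.58308.1.S1_at read 11.97, 12.35 and 11.58 with seeds and 11.84, 11.86 and 11.79 without, against 6.68, 8.69 and 7.91 in INO-IaaM, 9.51, 10.86 and 7.20 in DefH9-IaaM, 8.33, 6.84 and 9.41 in INO-RolB, and 9.79 and 8.25 in DefH9-RolB. Controls agreed within 0.8 while the lines ranged over more than 4 units below them. Its line means were 6.22 to 16.7-fold below the control no seeds, and its gap of 2.64 was 1.64 without DefH9-IaaM replicate 3. LesAffx.30842.1.S1_at, with a gap of 2.28, had control means of 10.20 with seeds and 10.21 without and line means of 7.44 to 7.93, 4.87 to 6.84-fold below the control no seeds.

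Comparisons whose differences the rule did not use asked whether members differed between the controls, between the transgenes or between the promoters. Each combination of promoter and transgene is a line of its own. A transgene or promoter difference therefore cannot be told apart from a difference between lines. The rule did use the 6 group means behind these comparisons, and genes linked to seeds were left out by name. The shares called among members are thus not independent of how members were chosen and are given as a description. The first comparison shows how a member responded to taking the seeds out. No member passed limma's test (Benjamini-Hochberg adjustment over all 10038 probe sets, threshold 0.05), against 4.39% of all probe sets tested. At an unadjusted p under 0.05 there were 7 members (6.6%), 5 higher and 2 lower without seeds, against 15.7% of all. The median difference, control no seeds minus control with seeds, was 0.14 over members and 0.03 over all, with a median SE of 0.39 among members, and 85 members had control means within 0.5 of each other. The smallest adjusted p, 0.0529, belonged to LesAffx.3467.1.S1_at, which read 6.86, 6.97 and 7.09 with seeds and 7.90, 8.11 and 7.35 without.

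The labels number the replicates but do not pair the control arrays. Same-numbered control arrays deviated together, as did those of INO-IaaM and DefH9-RolB. A fit of the 6 control arrays with the number as a block, chosen after seeing the data, called 6 members. In that fit 4.33% of all probe sets were called. Among these members was the first MPK3 probe set (0.53 higher without seeds, limma adjusted p = 0.0490), while its second probe set was not called. The others were the second LOC543942 probe set (a difference of -0.65, limma adjusted p = 0.0321) and 4 unnamed probe sets, 2 in each direction. In the fit of all 17 arrays the first MPK3 probe set differed by 0.53 ± 0.42. That missed limma's threshold, at an adjusted p of 0.616. For 3 members, picked out after their values were seen, the controls differed by more than 3 units. Les.5634.1.S1_at read 13.52, 13.26 and 13.58 with seeds, 9.50, 6.82 and 11.48 without, and 4.49 to 12.05 on line arrays. Les.5694.1.S1_at and Les.253.1.S1_at had differences between the controls of -3.77 and -3.48. These 3 were high on all arrays with seeds and scattered on all others, and of the 3 only Les.5694.1.S1_at was called in the paired fit.

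The level of genes linked to seeds was recorded beside these results. The mean of 6 such genes (CHS2, GLB2, SNF4, GolS-1, AGAL and LOC544276, chosen on these samples) was 10.94 to 11.58 with seeds, 6.46 to 8.27 in fruit with the seeds removed and 5.48 to 7.92 in the lines. Across the 17 arrays, deviations of this mean from its group mean had a Pearson correlation of 0.15 (Spearman 0.08) with those of the member mean, and 0.14 without the 2 arrays farthest from the median. That is a description over arrays, with no test. Of the seed storage, oil body and late embryogenesis markers, 1 gene was found by name on the array, TAS14. Its means were 10.46 with seeds, 8.70 without and 8.47 to 11.44 in the lines.

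Between the transgenes, 0 members passed limma's test of the IaaM lines minus the RolB lines, against 2.92% of all probe sets. At an unadjusted p under 0.05 there were 5 members (4.72%), against 18.9% of all. Members spread more within groups, with a median standard deviation of 0.528 against 0.175 over all. These shares, and those of the other comparisons, are thus not at equal precision. The median difference was -0.10 over members and 0.01 over all, with a range from -1.60 to 0.81 and a median SE of 0.29. LesAffx.30832.1.S1_at was the lowest, at -1.60 ± 0.56 (adjusted p = 0.142 by limma). It read 10.28, 11.65 and 10.02 with seeds, 10.05, 10.36 and 9.64 without, 4.46, 5.78 and 6.36 in INO-IaaM, 7.31, 9.23 and 6.15 in DefH9-IaaM, 7.59, 7.86 and 8.93 in INO-RolB, and 9.03 and 7.28 in DefH9-RolB. INO-IaaM had the lowest mean of the groups, its values overlapping those of DefH9-IaaM, and all INO-IaaM arrays read below both RolB lines. Its gap of 1.86 was 0.99 without DefH9-RolB replicate 2.

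Leaving out DefH9-IaaM replicate 2 brought 3 members past the threshold, all lower in the IaaM lines, with 3.29% of all probe sets called. They were LesAffx.30832.1.S1_at (-2.01, limma adjusted p = 0.0412), Les.953.2.A1_at (-0.87, adjusted p = 0.0351) and LesAffx.71654.1.S1_at (-0.77, adjusted p = 0.0399). All 4 line means of Les.953.2.A1_at, 4.39 to 5.34, lie in the silent range, so its difference is between means within the readings of silent reporters. With all arrays LesAffx.71654.1.S1_at differed by -0.57 ± 0.23 (limma adjusted p = 0.192). Its group means were 8.17 in INO-IaaM, 8.50 in DefH9-IaaM, 8.81 in INO-RolB and 9.01 in DefH9-RolB, against 9.91 and 9.86 in the controls with and without seeds, and its gap of 0.86 was 0.50 without DefH9-RolB replicate 2. Of the jasmonate genes, loxD differed by -0.72 ± 0.32 (adjusted p = 0.241), which did not pass limma's threshold. No difference between the lines is given for AOS, as all its line means lie in the silent range.

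For the promoters, 88 of 106 members (83.0%) had a higher mean in the DefH9 lines than in the INO lines, against 47.9% of all probe sets, 84 within the IaaM pair of lines and 83 within the RolB pair. These counts rest on single arrays. Without DefH9-IaaM replicate 2 they were 65 over both pairs and 37 within the IaaM pair, and the mean over members in that line was 7.72, below the 7.84 of INO-IaaM. Within the RolB pair the count was 52 without INO-RolB replicate 2 and 48 without DefH9-RolB replicate 1. Some other omissions raised the counts. Without DefH9-IaaM replicate 3 they were 93 over both pairs and 96 within the IaaM pair. The RolB count was 92 without INO-RolB replicate 1. No member passed limma's test, nor did any probe set of the array (0% called). At an unadjusted p under 0.05 there were 2 members (1.89%), against 372 (3.71%) of all. The median difference was 0.22 over members and -0.005 over all, and the largest, 1.12 ± 0.62, was that of LesAffx.58308.1.S1_at. Members vary together from array to array, so a count of members on one side is not a count of independent observations. For the promoter by transgene interaction 0 members and 0% of all probe sets were called by limma, with 3 members (2.83%) and 383 probe sets (3.82%) at an unadjusted p under 0.05 and a median SE of 0.59 among members.

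Members also shared a pattern that the group means do not hold. Each value was replaced by its deviation from its group mean, and members were correlated over the 17 arrays, which leaves 11 residual degrees of freedom. The median correlation over the 5565 pairs was 0.55 (quartiles 0.22 and 0.74), with 86.7% of pairs above 0, against a median of 0.0057 (quartiles -0.25 and 0.26) and 50.6% for pairs of all probe sets. Pairs share arrays and RNA pools, and the value is a description. In the 6 control arrays alone the median was 0.46, in the 11 line arrays alone 0.63, without DefH9-IaaM replicate 2 it was 0.376, and without replicates 2 and 3 of that line it was 0.383.

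**Figure D4:**
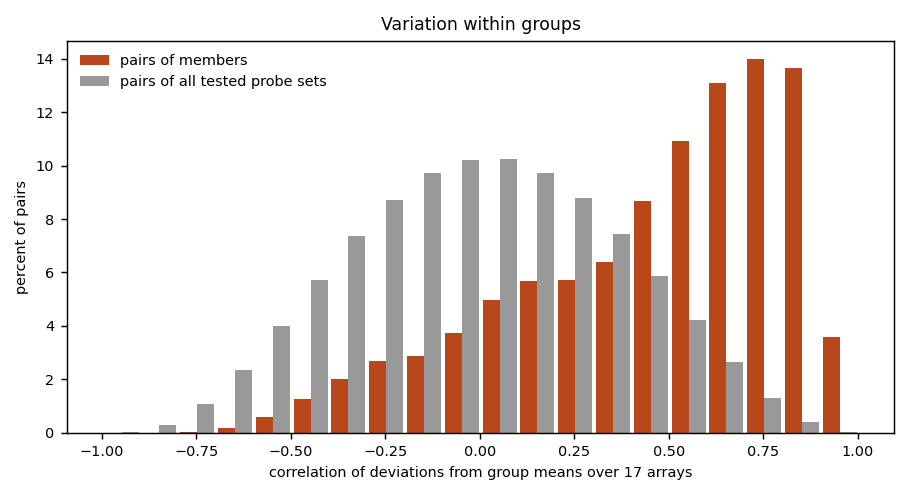
Percent of pairs (vertical axis) by the correlation of their deviations from group means over 17 arrays (horizontal axis), for pairs of members and pairs of all tested probe sets. Pairs of members are shifted to the right, with a median of 0.55, while pairs of all probe sets centre near 0.

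Spread among replicates was also wider for members. The median within-group standard deviation (SD) was 0.528 over members and 0.175 over all probe sets, and 103 of the 106 lay above the latter. The comparison was not matched for signal level. The rule chose members by level and by shifts in means of 2 or 3 arrays, so this is a description. Per group, the SD of the member mean was 0.05 in the control no seeds, 0.33 in the control with seeds, 0.13 in INO-IaaM, 0.68 in DefH9-IaaM, 0.37 in INO-RolB and 0.22 in DefH9-RolB (n = 2, and n = 3 in the other groups).

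The named genes differed in how closely they followed the rest. The correlation of a member's deviations with the mean of the others was 0.96 for LOC543701, 0.91 for CBF1, 0.89 for tXET-B2, 0.88 for yfe37 and 0.80 for adc1. It was 0.78 and 0.79 for the MPK3 probe sets, 0.77 for loxD, 0.71 for PLDb2 and 0.61 for AOS. LOC543942 followed at 0.56 and 0.57, LOC544312 at 0.37 and FRO1 at 0.18. Across all members it was above 0.5 for 83, above 0.8 for 41 and below 0 for 6, and the 3 members high with seeds stood at -0.04, 0.25 and 0.20.

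**Figure D5:**
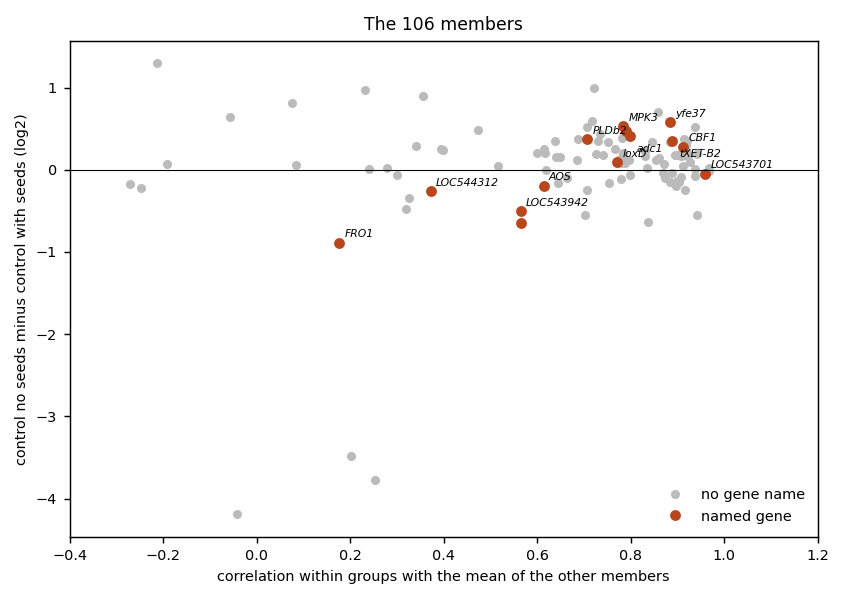
For each of the 106 members, the correlation of its within-group deviations with the mean of the other members (horizontal axis) and its log2 difference between the controls, no seeds minus with seeds (vertical axis), with named genes in orange. Most members lie at correlations above 0.5 with control differences near 0, and the 3 members with differences of -3.48 to -4.19 follow the others weakly.

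A measure of RNA quality moved with the lines. The signal at the 5' end of the actin and GAPDH control transcripts minus that at the 3' end was -0.70 to -0.34 on line arrays, -0.89 to -0.59 with seeds and -0.92 to -0.57 without. The line arrays had a mean 0.28 above that of the control with seeds (11 against 3 arrays, two-sided exact permutation p = 0.0055, adjusted p = 0.0110) and 0.24 above that of the control no seeds (exact permutation p = 0.0137, adjusted p = 0.0137). The permutations treated the 11 line arrays as interchangeable, although they come from 4 lines. The part of this measure in the levels of the members was not tested. Within groups its correlation with the member mean was -0.15 (Spearman -0.07), and 0.21 without the 2 arrays farthest from the median. Array medians were 8.40 to 8.46, and arrays of a group correlated at 0.986 to 0.9947.

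Relatives of the named members, picked after the members were known and so given as values only, did not all read lower in the lines. Among lipoxygenase genes, the mean of the 4 lines minus the control with seeds and minus the control no seeds was 1.14 and 0.78 for LOX1.1, 1.02 and 0.84 for TomloxE, and -0.58 and -0.26 for loxC. Downstream of AOS, it was -0.01 and 0.06 for AOC, allene oxide cyclase, and -0.10 and -0.39 for OPR3, an oxophytodienoate reductase. Among the jasmonate genes found by name on the array, loxD and AOS were the only members. Most members have no gene name.

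Other MAP kinase genes lay closer to the controls than MPK3, with 0.02 and -0.13 for MPK2 and -0.57 and -0.66 for MAPKKKalpha, a kinase upstream in such cascades. The phospholipase D gene PLDb1 stood at -0.24 and -0.46, and PLDa1 at 0.09 and 0.05. Of the DREB factors, relatives of CBF1, DREB1 stood at -1.83 and 0.63 and DREB3 at -0.35 and -0.71. Xyloglucan endotransglycosylase genes went both ways, XTH3 at -0.63 and -0.91 and XET2 at 1.15 and 0.72.

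The wider lists of hormone, wall, sugar and defence genes hold no member. In part this is because the rule leaves genes out by name, and in part because of how the lists were written. The cell wall list was written without tXET-B2, and the defence list without loxD, AOS and MPK3. Of the 6 probe sets that met the values of the rule and were set aside, ACS3 (gap 2.57) and ER5 (1.05) are in the ethylene list. The sugar list holds lin5 (1.55) and the amino acid transport list AAP2 (0.95), while LOC544276 (2.07) and GolS-1 (0.92) are among the seed-linked genes. The lists were tested with limma as the mean of the 4 lines minus each control, where 12.5% of all probe sets were called lower and 17.4% higher against the control with seeds, and 8.49% lower and 8.75% higher against the control no seeds. Of 9 defence genes, 4 rose and 1 fell against the control with seeds, and 3 rose and 0 fell against the control no seeds, with median differences of 0.52 and 0.84 beside 0.05 and 0.03 over all. NP24-I, a thaumatin-like defence protein, rose by 1.83 and 0.88 against the 2 controls, and the chitinase gene CHI17 by 0.34 and 0.59. The 3 that rose against the control no seeds were 1 without replicate 1 or replicate 3 of that control and 0 with the 5' minus 3' signal in the fit.

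Of 37 ethylene genes, 5 rose and 7 fell against the control with seeds and 1 rose and 8 fell against the control no seeds. Those that fell against both included ERF3, an ethylene response factor, at -0.67 and -0.77. The 31 cell wall genes split 3 higher and 5 lower, and 4 and 4, and the 19 sugar genes 3 and 3, and 2 and 1. In the 6 amino acid transport genes 0 rose, 3 fell against the control with seeds and 4 against the control no seeds. Of 8 auxin genes 0 rose and 3 fell, then 1 rose and 1 fell. Among 7 gibberellin genes 0 rose, 4 fell and then 1 fell. Every group mean of CPS and 20ox-2, both counted as lower than the control with seeds, lay in the silent range. The same held for the auxin gene IAA2 and the cell wall gene exp18, also counted as lower than that control. These falls are thus between means within the readings of silent reporters. Of 5 phenylpropanoid and flavonoid genes 4 fell against the control with seeds and 0 against the control no seeds. The counts of all these lists include genes that the rule names, so they are not independent of how members were chosen. ACS3, ER5, lin5, AAP1, AAP2 and TBG2 are counted as lower than both controls, and CHS2 as lower than the control with seeds. The sugar gene lower than the control no seeds was lin5. Leaving out a control array lowered several of these counts by more than 1.5 times. The 8 ethylene genes lower than the control no seeds became 5 without its replicate 1 or 3, and against the control with seeds the 5 cell wall genes became 2 without its replicate 3. The 4 cell wall genes higher than the control no seeds became 2 without its replicate 2 or 3. Likewise the 4 gibberellin genes became 2 without replicate 2 or 3 of the control with seeds. The 4 phenylpropanoid genes became 2 without replicate 1 or 3 of that control. The 3 sugar genes lower than that control became 0 without its replicate 3. Without replicate 1 of the control no seeds 0 sugar genes were higher than it.

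Markers of other tissues found by name on the array were few. The green tissue genes PSBO and PSBR had mean differences, lines minus controls, of -0.19 and -0.24 and of 0.09 and -0.01, none called. SUT2, a sucrose transporter taken as a vascular marker, was at -0.39 (called) and -0.24 (not called). SUT2 lost its call without replicate 1 or 3 of the control with seeds, or without DefH9-RolB replicate 2. In the epidermis list LE16 rose by 1.26 and 1.43. These calls were lost when any single control array, or INO-IaaM replicate 1 or 2, was left out. TSW12 fell by 4.19 against the control with seeds and was at 0.86, not called, against the control no seeds. Their part in the levels of the members was not tested.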

How the data were processed

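The authors deposited log2 expression values, 1 per probe set and array, made with RMA per the submitters' processing notes (version not given in the sources used here); that the scale is log2 follows from how far the values reach. No column belonged to samples outside the series. Of 10209 probe sets, 108 AFFX controls and 63 reporters were set aside, which left 10038. Gene names came from the platform annotation (909 probe sets with 1 gene, 802 genes, 0 with several, 9129 with none), and 885 were matched by gene number to RefSeq assembly SLM_r2.1. No sequence or genome coordinate was used here.

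For each probe set, limma 3.58.1 (R 4.3.3) fitted the 6 group means over all 17 arrays with lmFit and eBayes, with 11 residual and 2.56 prior degrees of freedom. Contrasts of these means were adjusted by Benjamini-Hochberg over 10038 probe sets with a threshold of 0.05, and the procedure was tested on simulated data. Fold changes are differences of log2 means. Tables and figures were made with Python 3.11.15, pandas 2.3.3 and matplotlib 3.10.9.

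The members, gene lists and tests were chosen with earlier results of these data known. Every member with a gene name is named, and of the unnamed ones the 2 with the largest gap and the 2 with the smallest adjusted p among lines; others named were chosen after their values were seen. For list genes with several probe sets the one with the highest mean was taken. As far as the labels say, arrays of a group are separate plants, and their number limits the precision. Same-numbered arrays of the 2 controls deviated together (correlations of 0.44, 0.48 and 0.16, all above 0.1), which is where their pairing comes from. Same-numbered arrays of INO-IaaM and DefH9-RolB also passed that limit, at 0.34 and 0.45, so it does not single out the controls. The remaining pairs of groups did not pass it with every correlation. Alternatives were a second quantile normalization, median centring, leaving out the lowest 30% of probe sets, array weights, trend and robust eBayes, the replicate block, the RNA quality measure (5' minus 3' signal) as covariate, fits of the compared groups alone, other limits in the rule, and each array left out in turn.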

Additional observations from a re-analysis of the deposited data

Results flagged for a closer look

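Probe sets outside the main measurement gave signal in the lines that the wild-type controls lacked, which is what singled out both of the following. Signal of the reporter RPTR-Les-U57609-2_s_at was 7.14 to 11.31 on 11 of 11 line arrays and at most 4.09 on the 6 control arrays. RPTR-Les-A00196-1_s_at read up to 11.36 and was above the highest control array (4.36) on 10 of 11 line arrays, 7.82 or more on those 10, while DefH9-RolB replicate 1 read 3.93. Neither probe set was used in any comparison.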

How the results depend on the processing

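The rule gave 106 probe sets with a margin of 0.7, 192 with 0.5 and 50 with 1, and 79 (without DefH9-IaaM replicate 3) to 126 (without replicate 3 of the control with seeds) when single arrays were left out. Of the 106, 44 were kept in every such repeat, among them LOC543701, yfe37, LOC544312, PLDb2 and the first LOC543942 probe set. Members called between the controls were 0, and 1 with median centring, 1 with array weights, 2 with the control arrays alone and 6 with the replicate block on those arrays, the last chosen after seeing the data; with the replicate block in the fit of all arrays there were 0. Leaving out single arrays gave 0 to 1 between the controls, 0 to 3 between the transgenes, 0 to 0 between the promoters and 0 to 0 for the interaction. The replicate block changed no other count of called members; among list genes it ended the calls of LE16 and left 1 sugar gene higher than the control no seeds in place of 2. The median within-group correlation of members ran from 0.376 to 0.584 with single arrays left out. Called probe sets for the lines against the control with seeds numbered 2999, 983 with the 5' minus 3' signal added as covariate, and 1725 (without replicate 3 of that control) to 3238, with 1865 without its replicate 1. Against the control no seeds they numbered 1730, 395 with the covariate, and 742 (without replicate 3 of that control) to 2137, with 804 without its replicate 1. The cause was not tested. Counts for the gene lists moved by over 1.5 times in 125 of 1248 repeats, and no gap of a named member changed sign in 342. Signals in the silent range, reached by 18 members in at least 1 line, limit how large a difference can be read.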

Other observations

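Probe sets outside the rule followed the members from array to array. Of 9932 probe sets that are not members, 74 (0.745%) had within-group deviations correlated above 0.8 with the member mean over the 17 arrays, 11 of them with a gene name. Of these 11, 3 are further probe sets of the member genes adc1 and MPK3, and the other 8 are each of a gene with no member. Lower means in the lines than in both controls were read for 10 of the 11. The exception was the MPK3 probe set, with the mean of the 4 lines at 0.03 from the control with seeds and -0.44 from the control no seeds. The same share over all probe sets was not counted, so this count is a description only. The highest correlations were those of MYC2 at 0.93 and ERF3 at 0.92, followed by XTH3 at 0.90 and DEM2 at 0.86. The mean of the 4 lines minus the control with seeds and minus the control no seeds was -0.21 and -0.35 for MYC2, known as a transcription factor of jasmonate responses, and -0.67 and -0.77 for ERF3. It was -0.80 and -0.87 for DEM2 and -0.54 and -0.70 for WRKYIId-1, a WRKY transcription factor that followed at 0.82. These genes were chosen after their values were seen, the correlations share arrays and RNA pools, and no test was made of them.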
